A study of Mus musculus with 27 samples.

Results

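The genes described here are 6 keratins (Krt20, Krt18, Krt19, Krt8, Krt7 and Krt80), the epithelial adhesion genes Epcam and Cdh1, and the mesenchymal genes Cdh2 and Vim. They were listed by name and looked up by symbol, and all 10 were found among the 54752 genes of both deposited count tables. RNA was sequenced from subcutaneous flank tumors of BALB/c mice, raised from cells of the murine colon carcinoma line CT26 mixed with Matrigel. There were 3 groups of 5 libraries: Mettl3 KO and Mettl14 KO tumors, whose CT26 cells carried guide RNAs against the gene named, and control tumors, whose cells carried a control guide. All 3 were made by retroviral transduction, and the sources used here do not say whether the knockout lines were clones or pools. The host mice kept their own cells, so each library holds tumor cell and host RNA, and fewer cells of a type cannot be told apart from less RNA per cell. The series design places the comparison under anti-PD-1 therapy. The protocols in the labels also list anti-CTLA-4 and IgG, each at 200 µg (10 mg/kg) between day 11 and day 23, and do not tie an antibody to a library. The genotype field of the libraries titled Mettl14 reads Mettl4, and the titles were followed. The labels do not tie libraries to separate mice, and p-values therefore cover only the variation among these samples, which may be technical.

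Keratins are the intermediate filament proteins of epithelial cells, and a filament pairs a type I chain (Krt18, Krt19, Krt20) with a type II chain (Krt7, Krt8, Krt80). Krt20 is known from the differentiated cells of the intestinal lining, Krt8 and Krt18 from simple epithelia in general. Epcam and Cdh1 (E-cadherin) hold epithelial cells together, while Cdh2 (N-cadherin) and Vim (vimentin) are used by mesenchymal cells and by carcinoma cells that have lost epithelial features. Mettl3 and Mettl14 form the core of the complex that writes N6-methyladenosine (m6A) into messenger RNA.

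The sequences upstream of the start site are shown for the keratin that differed most between groups, Krt20, for Krt18, a keratin expressed at a lower level, and for Epcam, an epithelial gene near the level of the receptor genes described below. They come from the RefSeq promoter table of GRCm38.p6, which holds 6 of the 10 members. Krt19, Krt80, Cdh1 and Cdh2 were not matched there. Capitals mark, on either strand, TATAAA (the TATA box), TTTAT (the core of the sites bound by the intestinal factors Cdx1 and Cdx2) and CACCTG (an E-box bound by Snail and Zeb repressors).
Krt20: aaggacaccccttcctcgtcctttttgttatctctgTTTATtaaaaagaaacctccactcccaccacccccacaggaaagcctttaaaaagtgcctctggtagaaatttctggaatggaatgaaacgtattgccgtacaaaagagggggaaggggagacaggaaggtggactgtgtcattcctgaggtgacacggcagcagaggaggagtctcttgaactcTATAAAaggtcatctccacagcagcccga
Krt18: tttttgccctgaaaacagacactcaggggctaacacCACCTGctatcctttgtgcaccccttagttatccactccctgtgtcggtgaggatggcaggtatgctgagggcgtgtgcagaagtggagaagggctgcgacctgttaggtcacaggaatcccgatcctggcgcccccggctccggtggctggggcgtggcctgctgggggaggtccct
Epcam: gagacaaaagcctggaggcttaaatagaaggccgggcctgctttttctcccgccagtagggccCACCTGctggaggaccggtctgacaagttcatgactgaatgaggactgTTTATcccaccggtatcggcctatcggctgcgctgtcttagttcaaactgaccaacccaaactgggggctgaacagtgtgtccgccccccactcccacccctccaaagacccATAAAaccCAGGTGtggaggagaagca
The Krt20 run is chr11:99438154-99438403 on the minus strand, the Krt18 run chr15:102027966-102028179 on the plus strand and the Epcam run chr17:87635729-87635978 on the plus strand. Krt20 held 1 TATAAA, at base -29 counted back from the last base shown, and 2 copies of TTTAT, of which 1 lies on the other strand and overlaps the TATAAA. It held no CACCTG. Krt18 held 1 CACCTG, at base -178, and neither of the other motifs in its 214 bases, while Epcam held 2 copies each of CACCTG and TTTAT and no TATAAA. Of 32851 promoters of 250 bases in the table, 12.4% held TATAAA, 37.3% TTTAT and 17.2% CACCTG.

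Because the knocked-out enzyme methylates RNA, the transcripts were also searched for GGACT, one form of the sequence at which m6A is placed. The Krt20 transcript of GENCODE M21 (1927 bases) held 2, shown here with 10 bases on each side and the motif in capitals.
Krt20 site at base 145: tataggaaggGGACTgtgcagcgtc
Krt20 site at base 533: tggctgcagaGGACTtcagattgaa
This is 1.04 sites per kb, against a median of 1.01 per kb over 21901 genes, of which 87.6% hold the motif. Krt18 held 4 sites in 1437 bases (2.78 per kb), a density above that of 96.4% of genes. Methylation of these transcripts was not analysed here.

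Gene reads numbered 4.35 to 9.33 M in Mettl3 KO, 6.45 to 17.0 M in Mettl14 KO and 5.52 to 21.0 M in control libraries (M, mega). Reads outside genes made up 60.2% to 78.0% of the reads in genes, outside genes or ambiguous between genes in Mettl3 KO, 53.6% to 65.9% in Mettl14 KO and 44.3% to 78.6% in control libraries, where replicate 1 stood at 78.6% and the others at 53.8% or less. As a yardstick for genes of other tissues, the 1457 olfactory and vomeronasal receptor genes had median levels of 0.623, 0.176 and 0.129 CPM per kb of exon in Mettl3 KO, Mettl14 KO and control libraries. Control replicate 1 was again apart, at 0.878 CPM per kb, with the other controls between 0.0418 and 0.148. CPM is gene reads scaled to counts per M, with library sizes adjusted by the trimmed mean of M-values (TMM). The targeted gene Mettl3 had 13.7 ± 1.44 CPM in Mettl3 KO tumors, against 19.4 ± 3.56 CPM in controls (log2 fold change -0.56, SE 0.15, edgeR adjusted p = 0.0545), with control replicate 1 at 13.4 CPM inside the knockout range. Mettl14 had 61.1 ± 12.3 CPM in Mettl14 KO tumors, against 68.9 ± 11.6 CPM in controls (log2 fold change -0.21, SE 0.17, adjusted p = 0.735), so the counts alone do not show the Mettl14 label.

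Among the keratins, Krt20 was by far the most abundant. On the scale of CPM per kb of exon, it averaged 29.7 ± 14.1 in Mettl3 KO, 53.2 ± 18.01 in Mettl14 KO and 96.3 ± 12.2 in control tumors (SD, n = 5 each). Krt18 followed at 5.53 ± 2.104, 6.39 ± 1.88 and 9.77 ± 3.70, and Krt80 at 2.62 ± 0.68, 2.91 ± 0.88 and 2.11 ± 0.30 CPM per kb. These ranked 1st, 2nd and 3rd of 53 protein-coding keratin genes by level per length, and the only 3 of the 53 more than 10 times above the median receptor level. Krt19 ranked 6th, Krt7 9th and Krt8 10th. Krt20 made up 68.1% ± 11.5 of the summed per-length level of the 6 keratins in Mettl3 KO, 81.5% ± 2.61 in Mettl14 KO and 86.9% ± 4.13 in control tumors.

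Vim was higher than any keratin, at 509 ± 168 CPM per kb in Mettl3 KO, 667 ± 67.1 in Mettl14 KO and 655 ± 158 in control tumors. Cdh2 had 6.77 ± 2.25, 8.22 ± 1.53 and 10.1 ± 2.97 CPM per kb in the same order of groups, in the range of Krt18. Cdh1 had 1.46 ± 0.74, 1.31 ± 0.46 and 0.999 ± 0.60, and Epcam 1.56 ± 1.10, 0.465 ± 0.26 and 0.657 ± 0.69 CPM per kb. Epcam, Krt8, Krt19, Krt7 and Cdh1 lay near the receptor genes. Their median ratios to the receptor level of the same library ran between 2.09 and 6.32 in the 3 groups, against 52.5 in Mettl3 KO, 270.2 in Mettl14 KO and 744 in control libraries for Krt20. Control replicate 5, with a receptor level of 0.0468 CPM per kb, lay higher, at 54.1 times that level for Krt19 and 40.3 times for Krt8. Cdh1 stood at 18.2 times, Epcam at 15.1 and Krt7 at 9.38 times in that library, and Cdh1 at 11.4 and 11.6 times in Mettl14 KO replicates 1 and 4. Raw reads were few for these genes, with 5 to 31 reads of Epcam, 7 to 74 of Krt8 and 1 to 94 of Krt19 in a library. By group level, Krt20 and Krt18 were the epithelial members that stood clear of the receptor genes together with Krt80. The defining epithelial genes Epcam, Cdh1 and Krt8 did not, apart from the single libraries named. In Mettl3 KO libraries Krt80 was itself closer to the receptor genes, at a median of 4.49 times their level, against 12.1 times in Mettl14 KO and 18.1 times in control libraries. Krt18 stood at medians of 10.1 times in Mettl3 KO, 34.9 times in Mettl14 KO and 76.6 times in control libraries. At its lowest, Krt18 was at 6.29 times in Mettl3 KO and 8.93 times in control replicate 1, below the single Cdh1 libraries named above.

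**Figure D1:**
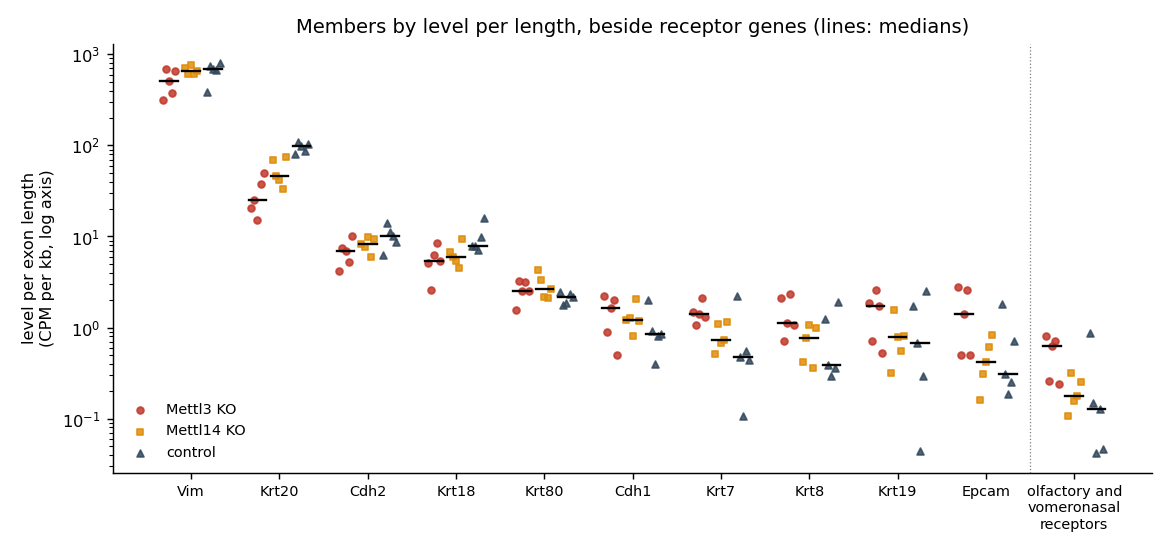
Level of each member in each of the 15 libraries, as CPM per kb of exon on a log axis, with Mettl3 KO (circles), Mettl14 KO (squares) and control (triangles) side by side and group medians as black lines. Vim and Krt20 are highest, and Cdh1, Krt7, Krt8, Krt19 and Epcam approach the olfactory and vomeronasal receptor genes at the right.

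Krt20 (ENSMUSG00000035775, mm10 chromosome 11, 99428403 to 99438150, minus strand) was lower in Mettl3 KO tumors and was the single member that edgeR called in any comparison. The Mettl3 KO libraries, replicates 1 to 5, had 39.2, 49.0, 29.3, 71.8 and 96.6 CPM. The control libraries had 155, 212, 191, 168 and 202 CPM. Every knockout library was thus below every control library. The log2 fold change was -1.76 (SE 0.28), a ratio of 0.296, with an adjusted p of 0.0217 by edgeR's quasi-likelihood test, and Krt20 ranked 42nd by p of 21427 genes tested. It was 1 of 10 members called, beside 1.24% of all genes called in either direction and 0.835% called lower. Groups did not overlap for 1.68% of all genes with the knockout lower and 1.76% with it higher. The 500 genes closest to Krt20 in abundance had a median of -0.54, which leaves -1.22 for Krt20 relative to them. The adjusted p was above 0.05 when Mettl3 KO replicate 1, 2 or 3 or control replicate 2, 3, 4 or 5 was left out (0.0519 to 0.0849), with log2 fold changes between -1.93 and -1.44 over the 10 omissions. It was also 0.0732 with library totals in place of TMM (-1.53) and 0.0568 with the share of reads outside genes as a covariate (-1.63). The edgeR adjusted p stayed under 0.05 with RLE scaling (0.0260), no filter (0.0269), a joint fit of 15 libraries (0.0355) and a replicate block (0.0069). DESeq2 gave an adjusted p of 7.3e-06 and limma voom 0.0048. The authors' deposited table gives -1.66 (SE 0.28, adjusted p = 1.04e-06) for this gene.

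In Mettl14 KO tumors the mean of Krt20 lay between those of the other groups. The Mettl14 KO libraries had 134, 89.2, 80.7, 64.3 and 144 CPM, set against the control values above. All 5 were below the lowest control, a pattern shared by 0.701% of all genes with the knockout lower. The log2 fold change of -0.89 (SE 0.22) had an unadjusted p of 0.0015 and an adjusted p of 0.196 by edgeR, so it did not pass over all genes. No gene passed in this comparison by edgeR (0% of 21555), where 2444 genes had an unadjusted p under 0.05, while DESeq2 called 262 genes and limma voom 0. Without control replicate 1 the adjusted p of Krt20 was 0.0440 (log2 fold change -0.91). The authors' deposited table gives -0.87 (SE 0.23, adjusted p = 0.0148). DESeq2 as run here gave -0.94 with an adjusted p of 0.0537.

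An exact permutation test of the log2 level of Krt20 alone, two-sided and chosen with the data already seen, gave p = 0.00794 for each knockout against control, the smallest value that 5 against 5 allows. Groups that do not overlap fix this p, and the non-overlap was already seen, so it is no further support for the Krt20 difference. Between the knockouts, Krt20 was lower in Mettl3 KO by 0.84 on the log2 scale (SE 0.29, edgeR adjusted p = 0.349; exact permutation p = 0.0556), with the groups overlapping. Both knockouts were compared with the same 5 control libraries.

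**Figure D2:**
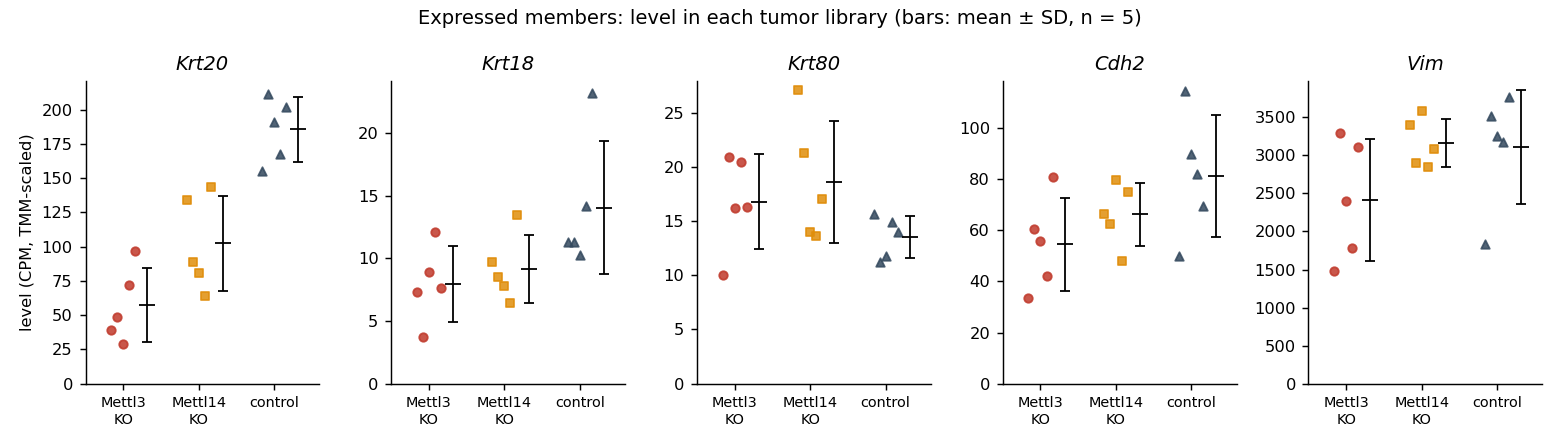
Level in each library (CPM, linear axis from 0) of Krt20, Krt18, Krt80, Cdh2 and Vim, with Mettl3 KO, Mettl14 KO and control from left to right and bars for mean ± SD (n = 5). Krt80 is closer to the receptor genes in Mettl3 KO, at a median of 4.49 times their level. For Krt20, all 10 knockout libraries lie below the lowest control library at 155 CPM, and for the other 4 genes the groups overlap.

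Krt18 (ENSMUSG00000023043, mm10 chromosome 15, 102028180 to 102032027, plus strand), the type I partner of Krt8 in simple epithelia, had lower means in both knockouts and did not pass by edgeR in either. It had 7.29, 3.72, 8.93, 12.1 and 7.66 CPM in Mettl3 KO libraries, 9.70, 8.50, 7.77, 6.41 and 13.5 CPM in Mettl14 KO libraries, and 11.3, 11.3, 10.3, 14.2 and 23.2 CPM in control libraries. In each knockout, 4 of 5 libraries were under the control median, and both groups overlapped with control. The log2 fold change was -0.89 (SE 0.34, edgeR adjusted p = 0.105) in Mettl3 KO tumors and -0.65 (SE 0.27, adjusted p = 0.382) in Mettl14 KO. Without control replicate 5, the highest control, these values were -0.51 and -0.40 (edgeR adjusted p = 0.421 and 0.688). DESeq2 and limma voom called Krt18 lower in Mettl3 KO tumors (-1.13 and -1.12, adjusted p = 0.0389 and 0.0424).

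Krt80, a type II keratin, was the other keratin clear of the receptor level by median in Mettl14 KO and control libraries, less so in Mettl3 KO. Its means were higher in the knockouts. Its levels were 10.0, 20.9, 16.2, 20.4 and 16.3 CPM in Mettl3 KO, 27.1, 21.2, 14.0, 13.6 and 17.0 CPM in Mettl14 KO, and 15.6, 11.2, 11.8, 14.95 and 14.0 CPM in control libraries. The groups overlapped, with log2 fold changes of 0.25 (SE 0.20, adjusted p = 0.354) in Mettl3 KO tumors and 0.42 (SE 0.22, adjusted p = 0.503) in Mettl14 KO. Without control replicate 1, the Mettl3 KO value was 0.54 with an adjusted p of 0.0425. Of the 75-base stretches of Krt80, 2.65% also occur in the transcripts of Gm35853, which overlaps it on the other strand, and no source used here gives the strand setting of the counting.

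The 3 remaining keratins had wide errors. Krt7, a type II keratin of glandular ducts, had 10.5, 7.54, 9.84, 14.9 and 9.24 CPM in Mettl3 KO, 3.62, 7.67, 4.74, 5.08 and 8.06 CPM in Mettl14 KO, and 15.6, 3.36, 0.745, 3.94 and 3.10 CPM in control libraries. All Mettl3 KO libraries were above 4 of the 5 controls, and control replicate 1 was above them all. Its log2 fold change was 0.93 (SE 0.61, edgeR adjusted p = 0.274) in Mettl3 KO tumors, where limma voom called it higher (1.60, adjusted p = 0.0389), and 0.07 (SE 0.63, adjusted p = 0.996) in Mettl14 KO. Without control replicate 1 the Mettl3 KO value was 2.08 with an adjusted p of 0.0017. Krt8 ranged from 1.41 to 4.54 CPM in Mettl3 KO, 0.704 to 2.11 CPM in Mettl14 KO and 0.580 to 3.70 CPM in control libraries, with log2 fold changes of 0.72 (SE 0.65) and -0.28 (SE 0.62) for the knockouts. Krt19, a small type I keratin, ranged from 0.972 to 4.74, 0.584 to 2.88 and 0.0828 to 4.70 CPM in the same groups, with log2 fold changes of 0.40 (SE 0.83) and -0.46 (SE 0.81). None of these 4 values passed (edgeR adjusted p between 0.393 and 0.975). Of the 75-base stretches of Krt8, 23.5% are shared with Gm36026 or the pseudogene Krt8-ps, so its few reads are uncertain.

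Epcam, a homophilic adhesion protein, had 6.15, 1.11, 3.10, 5.67 and 1.09 CPM in Mettl3 KO, 0.351, 0.685, 0.922, 1.33 and 1.81 CPM in Mettl14 KO, and 4.02, 0.672, 0.414, 0.548 and 1.55 CPM in control libraries. Cdh1, the junction protein E-cadherin, had 10.3, 4.12, 7.47, 9.26 and 2.31 CPM in Mettl3 KO, 5.49, 5.89, 3.69, 9.39 and 5.44 CPM in Mettl14 KO, and 9.18, 4.23, 1.82, 3.72 and 3.90 CPM in control libraries. For both genes Mettl3 KO replicates 1, 3 and 4 and control replicate 1 were high, which were the libraries with the highest receptor levels, and Cdh1 was also high in Mettl14 KO replicate 4. Log2 fold changes in Mettl3 KO were 1.22 for Epcam (SE 0.78, adjusted p = 0.267) and 0.52 for Cdh1 (SE 0.50, adjusted p = 0.425). In Mettl14 KO they were -0.54 (SE 0.71) and 0.34 (SE 0.41), with adjusted p of 0.909 and 0.885. Without control replicate 1 both genes passed in Mettl3 KO tumors, Epcam at 2.21 (adjusted p = 0.0099) and Cdh1 at 1.14 (adjusted p = 0.0333), in a comparison where 11625 genes then passed.

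The mesenchymal members did not pass by edgeR either. Cdh2 had 33.5, 60.4, 56.0, 42.2 and 80.8 CPM in Mettl3 KO, 66.3, 62.4, 79.8, 47.9 and 75.0 CPM in Mettl14 KO, and 49.9, 114, 89.8, 82.1 and 69.4 CPM in control libraries. Vim had 1477, 3289, 2405, 1781 and 3112 CPM in Mettl3 KO, 3393, 2903, 3586, 2848 and 3084 CPM in Mettl14 KO, and 1833, 3514, 3250, 3176 and 3763 CPM in control libraries. Control replicate 1 was the lowest control for both, and Mettl3 KO replicates 1 and 4 were the lowest knockouts. The log2 fold changes in Mettl3 KO were -0.63 for Cdh2 (SE 0.23, adjusted p = 0.0929) and -0.44 for Vim (SE 0.25, adjusted p = 0.233), where genes of like abundance had medians of -0.51 and -0.60. In Mettl14 KO they were -0.32 for Cdh2 (SE 0.20, adjusted p = 0.625) and -0.003 for Vim (SE 0.18, adjusted p = 0.998, with a 95% interval of -0.35 to 0.35). The sign of the Vim value turned with library totals (0.17). Without control replicate 1, Cdh2 passed in Mettl3 KO tumors (-0.54, edgeR adjusted p = 0.0416).

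Over the 10 members, 4 had log2 fold changes below 0 in Mettl3 KO tumors and 7 in Mettl14 KO tumors. Their medians were 0.32 and -0.30, beside -0.14 and -0.09 over all genes tested. With library totals in place of TMM the medians over all genes were 0.02 and 0.07. In the Mettl3 KO comparison 3 members had an unadjusted p under 0.05 (Krt20, Krt18 and Cdh2), a share close to the 32.3% of all genes (6918 of 21427). DESeq2 called 2 members (Krt20 and Krt18), beside 12.8% of all genes, and limma voom 3 (these and Krt7), beside 23.5%. In Mettl14 KO, edgeR, DESeq2 and limma voom called 0 members, and 2 had an unadjusted p under 0.05 (Krt20 and Krt18), beside 11.3% of all genes. DESeq2 called 1.46% of all genes there. Between Mettl3 KO and Mettl14 KO all 3 tools called 0 members. Krt20 and Epcam had an unadjusted p under 0.05, and Epcam, at 1.71 (SE 0.69, edgeR adjusted p = 0.349), had the largest difference. Genes of like abundance to Epcam had a median of 0.79 in this comparison. The median receptor level was 0.623 CPM per kb in Mettl3 KO, against 0.176 in Mettl14 KO, and its part in the Epcam value was not tested. EdgeR called 0% of 24566 genes there, with 3152 (12.8%) at an unadjusted p under 0.05, and DESeq2 called 60 (0.298%). The groups overlapped for all 10 members, as against 1.88% of genes fully lower and 1.65% fully higher in Mettl3 KO.

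**Figure D3:**
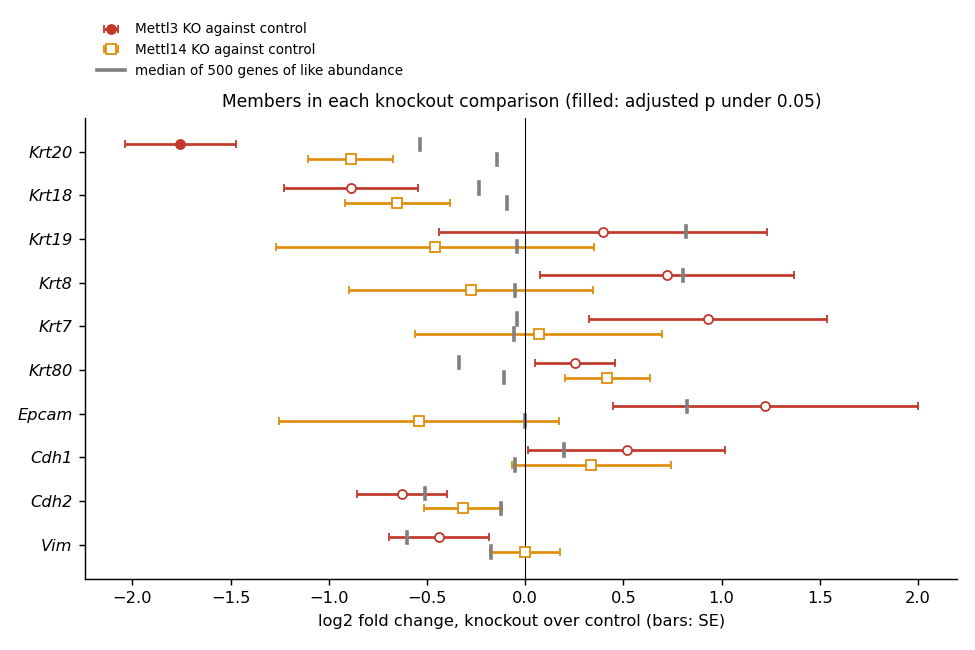
Log2 fold change of each member in Mettl3 KO (circles) and Mettl14 KO (squares) over control, with SE bars, and the median of 500 genes of like abundance as grey ticks. The filled circle is Krt20 in Mettl3 KO at -1.76, the 1 value with an edgeR adjusted p under 0.05, and the members near the receptor level have the widest bars.

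Ratios of 2 members within a library do not depend on how libraries are scaled. The log2 ratio of Krt20 to Krt18 counts was 2.80 ± 0.86 in Mettl3 KO, 3.45 ± 0.19 in Mettl14 KO and 3.78 ± 0.46 in control libraries. Its differences from control of -0.97 and -0.33 did not pass (exact permutation p = 0.0794 and 0.214, adjusted over 12 comparisons 0.238 and 0.320), so a difference between Krt20 and Krt18 in their response was not shown. Against the scarce Krt8, both abundant type I keratins were lower in Mettl3 KO. The log2 ratio Krt20/Krt8 differed by -2.88 and Krt18/Krt8 by -1.90 (exact permutation p = 0.00794 and adjusted p = 0.0476 for each), while the Mettl14 KO differences of -0.97 and -0.65 did not pass (adjusted p = 0.320 each). Krt20 was already seen not to overlap with control, so Krt20/Krt8 is no further support for its difference. Krt8 itself had a log2 fold change of 0.72 in Mettl3 KO, where genes of like abundance had a median of 0.80. Krt8 counts were few and near the receptor level, which was higher in all 5 Mettl3 KO libraries than in 4 of the 5 control libraries, and the part of this in the ratios was not tested. With 1 library left out, the smallest exact permutation p that 4 against 5 allows is 0.0159, and the adjusted p of both ratios lay between 0.0635 and 0.0952, which at that size shows nothing of their stability. The differences stayed between -3.23 and -2.60 for Krt20/Krt8 and between -2.20 and -1.68 for Krt18/Krt8. Krt20/Krt19 differed by -2.97 in Mettl3 KO (adjusted p = 0.159) and -1.24 in Mettl14 KO (adjusted p = 0.320).

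The cadherin ratio Cdh1/Cdh2, a common measure of epithelial against mesenchymal state, had log2 values of -3.14 ± 1.36 in Mettl3 KO, -3.50 ± 0.75 in Mettl14 KO and -4.27 ± 1.16 in control libraries. The differences of 1.13 and 0.77 did not pass (exact permutation p = 0.198 and 0.246, adjusted p = 0.320 each), nor did those of Cdh1/Vim at 0.94 and 0.45 (adjusted p = 0.320 and 0.468). Krt20 was also set against the abundant mesenchymal genes, as a description chosen after the levels were seen. The log2 ratio Krt20/Vim was -5.46 ± 0.73 in Mettl3 KO, -5.01 ± 0.47 in Mettl14 KO and -4.03 ± 0.28 in control libraries, with no overlap with control in either (differences -1.43 and -0.98). Krt20/Cdh2 differed by -1.23 in Mettl3 KO and -0.65 in Mettl14 KO. Krt20 enters both ratios and was already seen not to overlap with control, so they are no further support for its difference.

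**Figure D4:**
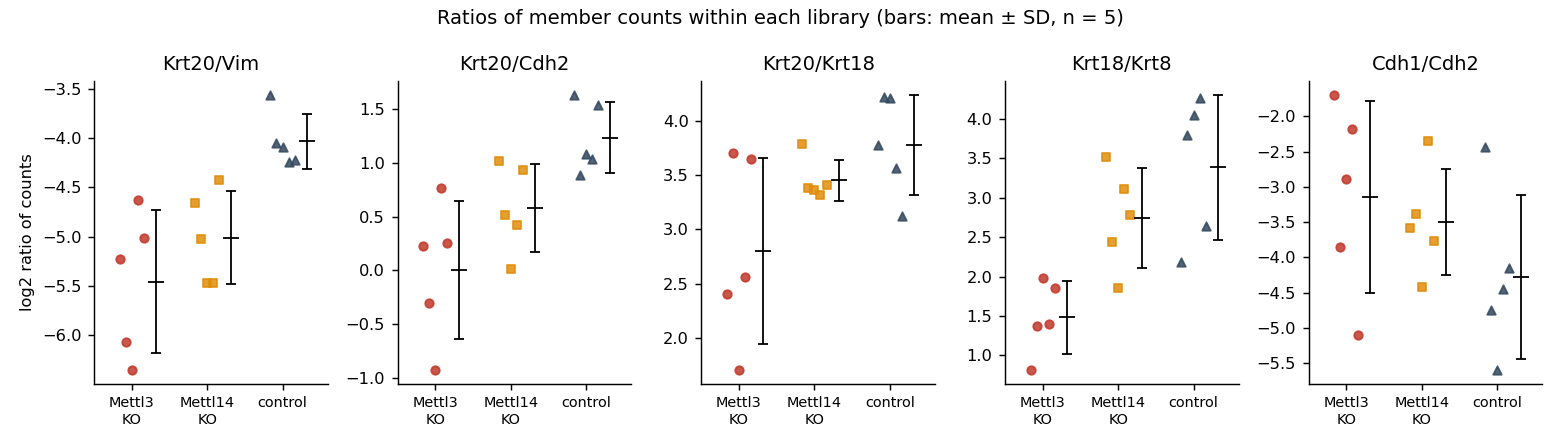
Log2 ratio of the counts of 2 members in each library, with Mettl3 KO, Mettl14 KO and control from left to right and bars for mean ± SD (n = 5). Krt20/Vim separates all 10 knockout libraries from the controls, which lie at -4.24 and above, while Krt20/Krt18 and Cdh1/Cdh2 overlap.

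Within groups, several low members varied together and against Vim and Cdh2, while no pair with Krt20, Krt18 or Krt80 passed. After subtracting group means, 10 of 45 pairs of members correlated over the 15 libraries with adjusted permutation p between 0.0335 and 0.0476. Cdh1 and Cdh2 went opposite ways (Pearson r = -0.83, Spearman rho = -0.80, permutation p = 0.0019 and 0.0027), with r = -0.70 without the 2 libraries farthest from the median of Cdh1. Epcam and Cdh1 went together (r = 0.80, rho = 0.79, permutation p = 0.0030 and 0.0047, r = 0.69 without 2 libraries), as did Cdh2 and Vim (r = 0.83, rho = 0.80, permutation p = 0.0018 and 0.0023, r = 0.66 without 2). The other 7 pairs were Cdh1 and Vim, Epcam with Vim, Cdh2, Krt7, Krt8 and Krt19, and Krt19 with Krt8. For Krt20 the values of r ran between -0.47 with Cdh1 and 0.46 with Cdh2 (adjusted permutation p = 0.268 for each).

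The same libraries were ordered by their receptor level. Within groups, the log2 receptor level correlated with Krt7 (r = 0.88, rho = 0.88, permutation p = 8e-05 and 0.00016, adjusted over 10 members 0.0008, r = 0.73 without 2 libraries). It correlated with Cdh1 (r = 0.77, rho = 0.75, permutation p = 0.0032 and 0.0055, adjusted p = 0.0106, r = 0.61 without 2) and with Epcam (r = 0.72, rho = 0.71, permutation p = 0.0085 and 0.0133, adjusted p = 0.0213, r = 0.52 without 2). Vim ran the other way (r = -0.80, rho = -0.83, permutation p = 0.0012 and 0.0015, adjusted p = 0.006, r = -0.77 without 2). For Krt20 r was -0.31, for Krt18 0.03 and for Krt80 -0.02 (permutation p = 0.138, 0.915 and 0.937). Krt8 (r = 0.37), Krt19 (0.55) and Cdh2 (-0.54) did not pass either (permutation p adjusted over 10 members 0.424, 0.197 and 0.134). Levels of members and receptors share the reads and the scaling of each library, and these relations were computed after the data were seen.

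**Figure D5:**
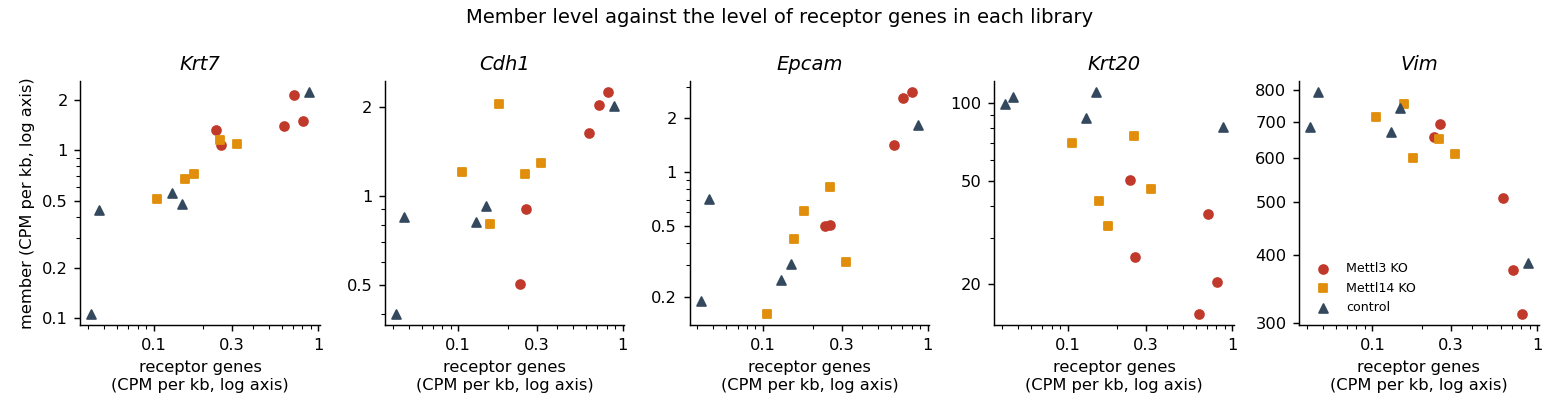
Level of 5 members against the summed level of the receptor genes in each of the 15 libraries, both as CPM per kb on log axes, with Mettl3 KO as circles, Mettl14 KO as squares and control as triangles. Krt7, Cdh1 and Epcam are higher where receptor genes are higher, Vim is lower there, and control replicate 1 is the triangle at the far right at 0.878 CPM per kb.

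The genes whose levels most resembled Krt20 over the 15 libraries, of 9478 genes with a mean of at least 10 CPM, were Abcb1a (r = 0.912), Ick (0.906), Dhrs9 (0.891), Mt1 (0.875) and Fkbp5 (0.875). Abcb1a, a drug efflux pump, had 67.6 ± 23.7 CPM in Mettl3 KO, 89.1 ± 18.3 in Mettl14 KO and 133 ± 17.9 in control tumors. Dhrs9, a retinol dehydrogenase, had 19.8 ± 5.42, 42.1 ± 27.4 and 113 ± 41.0 CPM, and Fkbp5, an immunophilin, 93.4 ± 40.0, 140.4 ± 40.7 and 227 ± 51.5 CPM in the same groups. These 3 fell in Mettl3 KO (log2 fold changes -1.05, -2.55 and -1.36, edgeR adjusted p = 0.0465, 0.0099 and 0.0465), and they were picked for following Krt20. Mt1, a metallothionein, and Ick had -0.89 and -0.40 (adjusted p = 0.0527 and 0.0588). With group means subtracted, the closest were Tnfrsf22 (0.851), Farp2 (0.847), Selp (0.831), Anxa8 (0.812) and Hoxc6 (0.811), and none of these passed in either knockout. Among the members, Cdh2 ranked 1376th (r = 0.66), Krt18 1400th (0.66), Vim 4494th (0.48) and Krt80 8262nd (-0.09) over the 15 libraries.

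Other lists of epithelial, mesenchymal and intermediate filament genes and of markers of other cell types were measured beside the members. Des stands in both the intermediate filament and the muscle list and is counted in each. Of 11 gene lists with 135 entries, edgeR called 0 genes in any comparison. Of the 109 entries tested in Mettl3 KO, 25 had an unadjusted p under 0.05, with 10 called by DESeq2 and 24 by limma voom, which is no more than the shares of all genes given above (32.3%, 12.8% and 23.5%). Of the 112 tested in Mettl14 KO, 22 had an unadjusted p under 0.05, with 9 called by DESeq2 and 0 by limma voom, beside 11.3%, 1.46% and 0% of all genes. Between the knockouts 24 of 120 had an unadjusted p under 0.05, with 6 called by DESeq2 and 0 by limma voom, beside 12.8%, 0.298% and 0% of all genes. Skeletal muscle markers made up 7 of the 22 and 7 of the 9 in Mettl14 KO, and 7 of the 24 and all 6 between the knockouts.

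The 25 intestinal epithelial genes, of which 13 were tested in Mettl3 KO, had a median log2 fold change of 0.90 there and 0.03 in Mettl14 KO tumors. The 500 genes closest in abundance to each listed gene had medians of their own, whose median over the list was 0.47 in Mettl3 KO and -0.05 in Mettl14 KO. The receptor level was also higher in all Mettl3 KO libraries than in 4 of the 5 controls, and its part in the list median was not tested. The 2 most abundant of them, the transcription factors Klf4 and Klf5 of the intestinal lining, had adjusted p just above 0.05 in Mettl3 KO. Klf4 had 57.6 ± 12.6 CPM in Mettl3 KO, 89.0 ± 15.8 in Mettl14 KO and 96.6 ± 27.5 in control tumors (Mettl3 KO -0.81, SE 0.21, edgeR adjusted p = 0.0526). Klf5 had 29.9 ± 7.12, 44.5 ± 10.7 and 45.7 ± 6.24 CPM (-0.67, SE 0.17, adjusted p = 0.0524). Both were called lower by DESeq2 (adjusted p = 0.0367 and 0.0418) and by limma voom. limma voom also called 6 genes of the list higher in Mettl3 KO, named here after their values were seen: Hnf4a (2.31), Slc26a3 (2.13), Lgr5 (1.89), Vil1 (1.54), Muc2 (1.47) and Cdh17 (1.22), with adjusted p between 0.0385 and 0.0483 and each at under 10 CPM on average in every group. Cdx2, the intestinal homeobox factor, averaged 2.80, 1.302 and 1.88 CPM in Mettl3 KO, Mettl14 KO and control tumors, and Vil1 (villin) 5.98, 3.04 and 2.77 CPM.

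Adherens and tight junction genes had medians of -0.39 in Mettl3 KO and -0.18 in Mettl14 KO, where genes of like abundance gave -0.41 and -0.10. Of 12 junction genes tested in Mettl3 KO, DESeq2 called 1 and limma voom 3, beside 12.8% and 23.5% of all genes. The highest means were those of the catenins that anchor cadherins, Ctnna1 (369, 497 and 457 CPM in Mettl3 KO, Mettl14 KO and control) and Ctnnb1 (229, 310.0 and 341 CPM). Desmosome and keratin linker genes had medians of 0.30 and 0.02, where genes of like abundance gave 0.32 and -0.03. Plec, the plectin that ties keratin filaments to membranes, had 1337, 2176 and 2114 CPM, and Ppl (periplakin) 8.37, 6.28 and 14.0 CPM, with a Mettl14 KO value of -1.18 (SE 0.33, edgeR adjusted p = 0.244). Epithelial regulator genes had medians of 1.28 and 0.32, where genes of like abundance gave 0.70 and -0.04, at summed levels of 27.2 to 67.7, 17.8 to 38.6 and 11.1 to 50.2 CPM over 14 genes. St14, the protease matriptase, had 6.65, 4.95 and 2.62 CPM (Mettl3 KO 1.298, SE 0.52, edgeR adjusted p = 0.116), and the factor Grhl1 5.08, 4.11 and 3.79 CPM. DESeq2 and limma voom called St14 higher in Mettl3 KO (1.20 and 1.61, adjusted p = 0.0484 and 0.0385).

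Mesenchymal program genes had medians of -0.44 in Mettl3 KO and 0.01 in Mettl14 KO, where genes of like abundance gave -0.49 and -0.11. The highest means were those of the matrix genes Fn1 (2478, 3647 and 3538 CPM) and Sparc (359, 531 and 391.6 CPM). Cdh11, a cadherin of mesenchymal cells named after its values were seen, averaged 23.2, 25.5 and 8.23 CPM in Mettl3 KO, Mettl14 KO and control tumors. The highest libraries of these groups had 52.0, 61.9 and 10.6 CPM of Cdh11. DESeq2 called Cdh11 higher in both knockouts (1.22 and 1.55, adjusted p = 0.0365 and 0.0420), and limma voom in Mettl3 KO (1.10, adjusted p = 0.0491). Twist2 of the same list went the other way in Mettl3 KO, where DESeq2 called it lower (-1.03, adjusted p = 0.0492). Other intermediate filament genes had medians of -0.25 and -0.01, where genes of like abundance gave -0.44 and -0.11. Among them, the lamin Lmna had 348, 486 and 579 CPM (Mettl3 KO -0.81, SE 0.27, edgeR adjusted p = 0.0725) and nestin (Nes) 85.4, 110.7 and 96.2 CPM.

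Markers of other cells in the tumor moved between libraries as well. The 12 keratinocyte markers summed to 18.5 to 48.4 CPM in Mettl3 KO, 9.93 to 29.1 in Mettl14 KO and 5.89 to 50.5 in control libraries, and no single one averaged more than the 5.55 CPM of Trp63 in Mettl3 KO tumors. Trp63 had 2.67 CPM in Mettl14 KO tumors, against 3.33 CPM in controls, and Krt1 had 4.79, 2.52 and 2.38 CPM in Mettl3 KO, Mettl14 KO and control. The medians of the list were 1.00 in Mettl3 KO and 0.03 in Mettl14 KO, where genes of like abundance gave 0.66 and -0.03. Fibroblast markers (Col1a2, Col3a1 and others) summed to 1358 to 4653, 1981 to 8199 and 1487 to 3439 CPM, and had median log2 fold changes of 0.05 in Mettl3 KO and 0.70 in Mettl14 KO. Endothelial markers (Pecam1, Cdh5 and others) summed to 187 to 285, 196 to 328 and 182 to 313 CPM (medians -0.20 and -0.02). The macrophage list (Mrc1 and others, with Ptprc, which other leukocytes also carry) summed to 776 to 1753, 1046 to 2819 and 760.2 to 1325 CPM (medians 0.05 and 0.49). In Mettl3 KO, Mrc1 had -0.90 and Ptprc 0.97 (edgeR adjusted p = 0.0636 and 0.0629), so the median of this list joins opposite directions. There limma voom called Mrc1 lower and Ptprc higher (adjusted p = 0.0392 each), and DESeq2 called Mrc1 lower (adjusted p = 0.0393). Skeletal muscle markers summed to 38.1 to 765, 10.9 to 45.1 and 36.6 to 316 CPM, with medians of 0.31 and -2.71, and Myh4 had 5.34 CPM in Mettl14 KO tumors, against 90.7 CPM in controls. In Mettl3 KO and Mettl14 KO, genes of like abundance gave -0.49 and -0.12 for the fibroblast list and -0.35 and -0.11 for the endothelial list. They gave -0.50 and -0.14 for the macrophage list and -0.39 and -0.08 for the muscle list. Fibroblasts, macrophages and endothelial cells also use Vim, and the part of these cells in the values of Vim and Cdh2 was not tested. The share of tumor cells in a library was not measured, and its part in the Krt20 difference was not tested.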

How the data were processed

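RNA-seq reads (single-end, 75 nt) were trimmed with cutadapt 1.18, aligned to mm10 with HISAT2 2.1.0 and counted per gene with HTSeq 0.11.2, per the submitters' processing notes. The deposited tables hold the authors' raw read counts for 54752 Ensembl genes, and their control columns are identical. No source used here gives the annotation release or strand setting. The authors' deposited fold-change tables, made with DESeq2 per the file headers and the submitters' processing notes, give a mean normalized signal, a log2 fold change with its SE, a test score and p-values. Rows of HTSeq that name no gene, 56.8% to 86.2% of all reads, stayed out of library sizes and tests. Of 27 samples, 12 (m6A immunoprecipitates and their inputs) were not analysed here, and 0 sample columns were unmapped.

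Groups followed the sample titles. Counts were filtered with filterByExpr (minimum count 10), scaled by TMM and tested with edgeR 4.0.16 (robust quasi-likelihood fit, Benjamini-Hochberg adjusted p under 0.05 over all genes tested) in R 4.3.3. Each knockout was compared with control in a fit of those 10 libraries, and Mettl3 KO with Mettl14 KO in a fit of all 15. Log2 levels used a prior count of 2. Within-library ratios used counts plus 0.5 and exact two-sided permutation tests, and correlations used 100000 permutations, in Python 3.11.15 with SciPy 1.17.1. limma 3.58.1 (voom), DESeq2 1.42.0, RLE scaling, library totals, no filter, a joint fit of 15 libraries, a replicate block, the share of reads outside genes as a covariate and leaving out each library were the alternatives. The fitting steps were tested on simulated data. Gene reads of 4.35 to 21.0 M per library set the counting precision. No 2 of 30 replicate pairs agreed within sampling noise (smallest chi-square per gene 9.14).

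The members and gene lists were chosen with earlier results of these data known. The genes named were all 10 members, the targeted genes, the genes of each list that passed (up to 4) or else the 2 with the highest mean, and the 5 genes most like Krt20 by Pearson r of log2 CPM over 15 libraries and the 5 after subtracting group means, among named genes of mean at least 10 CPM. Cdx2, Vil1, Cdh11, Twist2 and 5 further intestinal genes (Hnf4a, Slc26a3, Lgr5, Muc2, Cdh17) were named after their values were seen. Same-numbered libraries were not treated as pairs.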

Additional observations from a re-analysis of the deposited data

Results flagged for a closer look

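Of 48 groups of 5 libraries examined, 2 held a library whose gap to its nearest neighbour was large for the range of the group, and chance gives about 1 in 20. Krt7 had 15.6 CPM in control replicate 1, with the next control at 3.94 CPM. The receptor level was also highest in that library (0.878 CPM per kb), as was its share of reads outside genes (78.6%), and their part in the Krt7 value was not tested. The log2 ratio of Krt20 to Krt18 was 3.79 in Mettl14 KO replicate 1, with the next Mettl14 KO library at 3.41.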

How the results depend on the processing

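Of 358 member log2 fold changes under alternatives, 314 kept their direction and side of the threshold, 9 lost and 12 gained a call, and 23 turned sign. The number of genes called in Mettl3 KO, 266, was 100 with RLE scaling, 122 with library totals, 62 with no filter, 2185 with DESeq2, 5031 with limma voom, 42 in the fit of 15 libraries, 55 with the covariate and 35 to 11625 leaving out 1 library, the highest without control replicate 1. In Mettl14 KO (0) it was 47 with no filter, 262 with DESeq2, 50 in the fit of 15 libraries and 0 to 1054 leaving out 1 library (1054 without control replicate 1, 148 without Mettl14 KO replicate 5, 6 without control replicate 2). Between the knockouts (0) it was 60 with DESeq2 and 0 to 1 leaving out 1 library. Of the members, 0 were called in Mettl3 KO with library totals and 0 with the covariate, 2 with DESeq2, 3 with limma voom and 0 to 6 leaving out 1 library, and in Mettl14 KO 0 to 1. Krt20 in Mettl3 KO was -1.53 with library totals, -1.63 with the covariate and -1.93 to -1.44 leaving out 1 library, and in Mettl14 KO -1.03 to -0.75. Leaving out 1 library, the Mettl3 KO ratios Krt20/Krt8 and Krt18/Krt8 ranged over -3.23 to -2.60 and -2.20 to -1.68. With the covariate, Mettl3 KO values were -0.14 for Krt19 and -0.34 for Cdh1. In Mettl14 KO, Krt19 was 0.018 with limma voom and -0.85 to 0.20 leaving out 1 library, and Vim was 0.17 with library totals, 0.028 with limma voom, 0.026 in the fit of 15 libraries, 0.10 with the covariate and -0.12 to 0.067 leaving out 1 library. There, Krt8 ranged over -0.48 to 0.30, Krt7 over -0.15 to 1.05 and Epcam over -0.81 to 0.30. The cause of these changes was not tested.

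Same-numbered libraries did not deviate together (correlations of -0.20 to 0.39 for Mettl3 KO and control, -0.42 to 0.23 for Mettl14 KO and control, -0.52 to 0.44 between knockouts, over 10047 genes), so the numbers do not pair them. In these comparisons 1, 1 and 0 samples correlated best with their own number. With the replicate block, 6002 genes and 4 members were called in Mettl3 KO and 14 genes in Mettl14 KO, Krt20/Krt8 stayed at -2.88 and Krt18/Krt8 at -1.90 (adjusted p = 0.375 each by exact permutation within numbers, where the smallest possible p of 0.0625 let no ratio pass), and Mettl14 KO values were 0.15 for Krt19 and 0.017 for Vim. Depth limits Krt19, Krt8, Krt7, Epcam and Cdh1, with 1 to 120 reads per library.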
